A study of Homo sapiens with 4 samples.

Results

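Heat shock protein genes and the genes of their partners and regulators were compared between SSRP1-depleted and control BE(2)C cells. BE(2)C is an established cell line from a human neuroblastoma, and its cells were given siRNA against SSRP1 or a non-targeting control siRNA. The members were all protein-coding genes whose platform symbol names an HSPA, HSPB, HSPD, HSPE, HSPH or HSP90 gene, a DNAJA, DNAJB or DNAJC co-chaperone, a BAG protein (1 to 6) or the heat shock factors HSF1, HSF2, HSF4 and HSF5. They numbered 25 of 14812 named genes: 11 HSPA genes, 3 small heat shock protein genes (HSPB1, HSPB3, HSPB8), HSPD1, HSPH1, HSPBAP1, 5 BAG genes and 3 HSF genes. RefSeq has 82 protein-coding symbols that match this rule. The other 57 matching symbols, among them all 42 DNAJ genes and all 3 HSP90 genes, stood on no probe set in the annotation used. They are not analysed here, which does not show that the array lacks them. The results concern heat shock proteins, BAG proteins and heat shock factors and hold no DNAJ co-chaperone.

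Each group held 2 samples, taken 72 hours after lipid transfection and each hybridised to 1 whole-transcript array. SSRP1 is a subunit of FACT, a histone chaperone that opens and restores nucleosomes in front of and behind RNA polymerase. Whether the replicates came from separate cultures is not said in the labels, so the p-values here rest on a spread between samples that may be technical. All values are the authors' RMA values on the log2 scale, where a difference of 1 is a doubling. Because the level of a probe set depends on its probes, a higher value for 1 gene than for another does not show more transcript.

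Heat shock proteins are chaperones that bind unfolded protein. HSP70 proteins bind and release their clients in a cycle of ATP hydrolysis, which J-domain co-chaperones start and nucleotide exchange factors, such as BAG and HSP110 proteins, complete. In unstressed cells the transcription factor HSF1 is held inactive, and after heat or other protein damage it binds arrays of inverted GAA units, called heat shock elements, and switches on the inducible genes. In Drosophila, FACT is recruited to the Hsp70 genes when they are activated by heat. Small heat shock proteins, of which HSPB1 is a widely expressed one, need no ATP and hold unfolded protein until HSP70 takes it over.

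The SSRP1 transcript itself stood at 7.42 and 6.97 with SSRP1 siRNA and at 9.05 and 9.23 with control siRNA, which left 26.0% of the control level (95% interval 19.3 to 34.8%, limma adjusted p = 0.0479). It did not pass when any 1 of the 4 arrays was left out (adjusted p of 0.241 to 0.599). Of 10 neuroblastoma marker genes 8 were measured, at 6.33 to 9.78 over all arrays. The groups did not overlap for 6 of them, 5 lower with SSRP1 siRNA (PHOX2A, HAND2, GATA3, DBH and TH) and 1 higher (CHGA). Over all named genes the groups did not overlap in 44.3%, with 22.5% lower and 21.8% higher. DBH, which makes noradrenaline, had 8.83 and 8.80 with SSRP1 siRNA, against 9.67 and 9.50 with control siRNA. The summed log2 level of the 8 was 67.4 and 68.0 with SSRP1 siRNA, against 69.6 and 69.5 with control siRNA. Of the markers of other cell types, 2 of 6 were measured for fibroblasts, 4 of 6 for glia and 1 of 6 for endothelium and blood. The fibroblast gene LUM stood at 8.59 and 8.35 with SSRP1 siRNA, against 7.64 and 6.91 with control siRNA, while DCN lay between 2.51 and 2.66 on all arrays. The glial gene S100B was also higher without overlap, at 5.43 and 5.23 with SSRP1 siRNA, against 4.96 and 4.77 with control siRNA. For the other 3 glial markers, SOX10, GFAP and ERBB3, the groups overlapped. The summed level of the 4 glial markers was 19.4 and 18.8 with SSRP1 siRNA, against 18.6 and 18.3 with control siRNA, and that of the 2 fibroblast markers was 11.2 and 10.9 against 10.3 and 9.48. The part of these markers in the results below was not tested.

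None of the 25 members passed the limma test after adjustment over all genes, where 0.0945% of all named genes passed, and the smallest adjusted p was 0.183. Without adjustment, 2 members (8.0%) had p under 0.05, BAG1 and HSPA6, both higher with SSRP1 siRNA, against 12.6% of all genes (6.56% higher and 6.03% lower). The log2 change was above 0 in 15 members (60.0%), against 48.3% of all genes, with a median of 0.06 over the members and -0.007 over all genes. With HSPA1A and HSPA1B, which encode the same protein, taken as 1 gene, 14 were above 0 and the median was 0.036. The 2 groups did not overlap in 14 members (56.0%), 7 higher and 7 lower with SSRP1 siRNA, against 44.3% of all genes (21.8% higher and 22.5% lower). The members' changes ran from -0.25 for HSPB1 to 0.81 for HSPA6. Without SSRP1 siRNA replicate 1 the number above 0 was 10 and the median was -0.022, and without control replicate 1 the median was -0.0085.

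**Figure D1:**
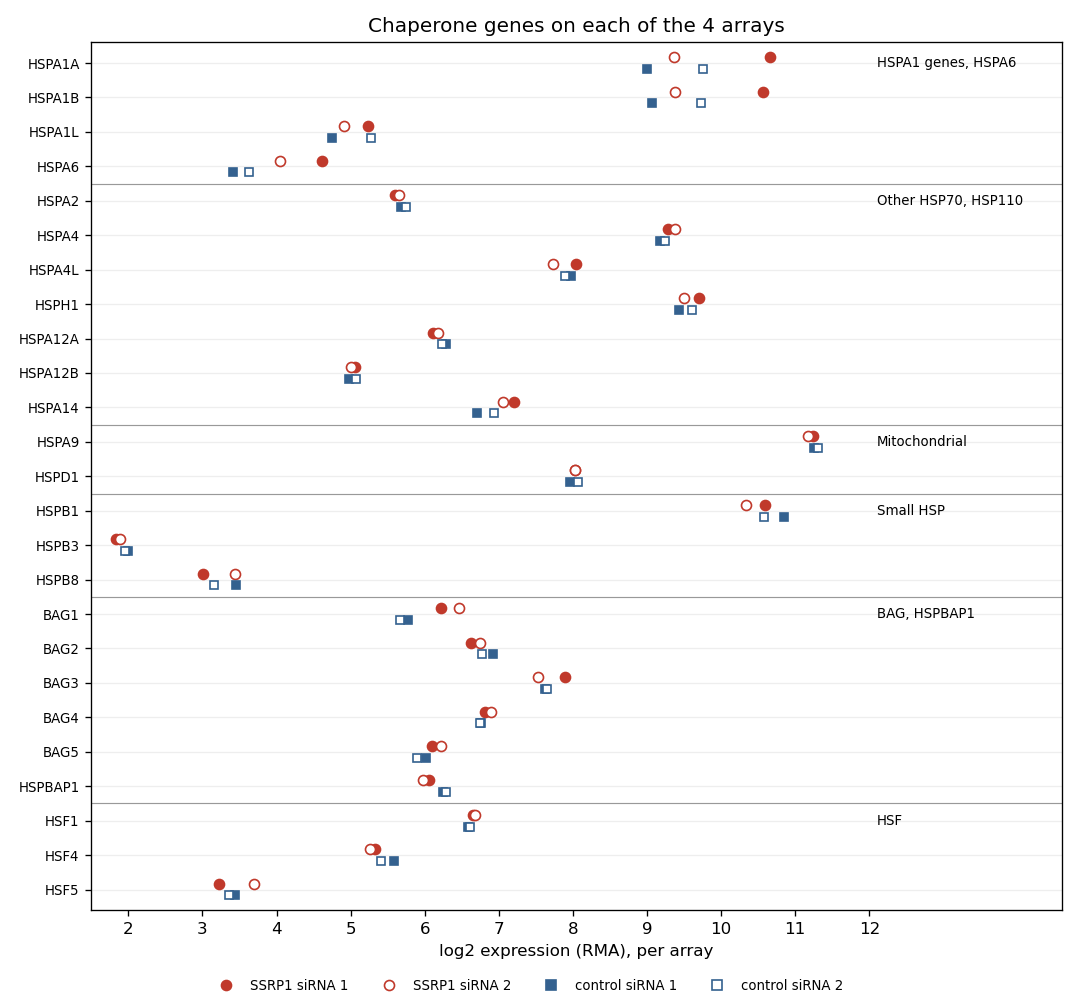
Log2 expression of the 25 genes on each array (horizontal axis), with the genes grouped by family down the page. Red circles are the 2 SSRP1 siRNA arrays and blue squares the 2 control siRNA arrays, filled for replicate 1 and open for replicate 2. HSPA1A and HSPA1B are spread widest, with SSRP1 siRNA replicate 1 above 10.5 in both genes.

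HSPA1A and HSPA1B, neighbouring genes of the major histocompatibility region that encode the same stress-inducible cytosolic HSP70, varied more between replicates than any other member. HSPA1A stood at 10.67 and 9.37 on the SSRP1 siRNA arrays, and at 8.997 and 9.757 on the control arrays. SSRP1 siRNA replicate 1 was thus high, and SSRP1 siRNA replicate 2 lay between the 2 control arrays, so the groups overlapped. HSPA1B had 10.57 and 9.37 with SSRP1 siRNA, against 9.06 and 9.72 with control siRNA, the same order of arrays. The 2 genes encode the same protein, and whether transcripts of one add to the signal of the other was not tested. They are therefore not counted as separate evidence.

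The difference between the group means of HSPA1A was 0.64 ± 0.45 (SE), with a 95% interval of -0.48 to 1.76 and a limma adjusted p of 0.625. That of HSPA1B was 0.58 ± 0.41 (SE), with an adjusted p of 0.630. These differences are smaller than the gap between the SSRP1 siRNA replicates, which was 1.30 for HSPA1A (2.46-fold) and 1.20 for HSPA1B (2.30-fold). Between the control replicates the gap ran the other way, with replicate 2 higher by 1.69-fold for HSPA1A and 1.58-fold for HSPA1B. Without SSRP1 siRNA replicate 1 the HSPA1A change was -0.0071, and without SSRP1 siRNA replicate 2 it was 1.29. Leaving out control replicate 1 gave 0.26 and leaving out control replicate 2 gave 1.02, so each of the 4 arrays moved the value by over 1.5 times. In SSRP1 siRNA replicate 1 the SSRP1 transcript was at 7.42, against 6.97 in replicate 2 of that group. Of these 2 samples the one with the higher HSPA1A level thus had more SSRP1 transcript left. Whether the levels are linked was not tested.

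Gaps of this size between replicates were rare in the whole table. Only 0.0608% of all named genes differed by as much between the SSRP1 siRNA arrays as HSPA1A, and 0.473% by as much between the control arrays. Over the members the median size of the gap was 0.13 between the SSRP1 siRNA arrays and 0.10 between the control arrays. The same medians over all genes were 0.13 and 0.12. The members' medians thus lay near those of all genes, with HSPA1A and HSPA1B far above them.

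Every probe set of these genes showed the same pattern. HSPA1A and HSPA1B each had 5 probe sets on the array, of which 3 of HSPA1A gave identical values. The gap between the SSRP1 siRNA replicates was 1.30 to 1.501 over the HSPA1A probe sets and 1.18 to 1.37 over those of HSPA1B. Between the control replicates, replicate 1 minus replicate 2 was -0.81 to -0.74 for HSPA1A and -0.81 to -0.66 for HSPA1B. The group difference ran from 0.64 to 0.74 over the HSPA1A probe sets. Probe sets of 1 gene share RNA and array and may share probes, which was not tested, so they do not count as replicates.

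**Figure D2:**
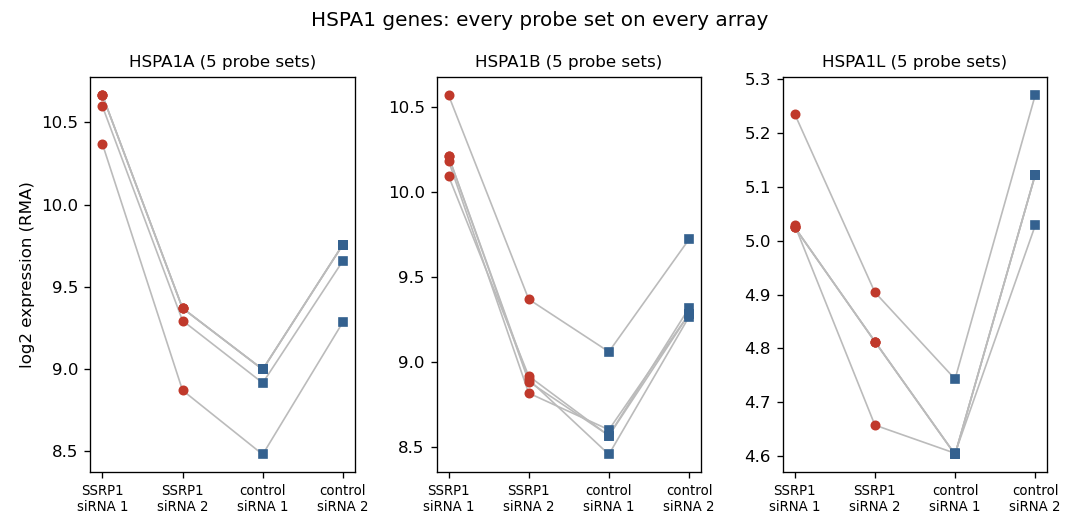
Log2 expression of each of the 5 probe sets of HSPA1A, HSPA1B and HSPA1L on the 4 arrays, each panel with its own vertical axis. Points of 1 probe set are joined by a grey line, red circles are SSRP1 siRNA and blue squares control siRNA. In HSPA1A and HSPA1B the highest array is SSRP1 siRNA replicate 1 for all probe sets, and control replicate 2 lies above control replicate 1. In HSPA1A and in HSPA1L 3 of the probe sets have identical values, so their points coincide.

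HSPA1L, a relative of HSPA1A expressed mainly in testis, lies head to head with HSPA1A. It had 5.24 and 4.90 with SSRP1 siRNA, against 4.74 and 5.27 with control siRNA. Within each group its higher and lower arrays were those of HSPA1A, although control replicate 2 was here the highest of the 4. The difference between groups was 0.06 ± 0.21 (SE, adjusted p = 0.933), and -0.10 without SSRP1 siRNA replicate 1. Its coding sequence resembles that of HSPA1A, and whether HSPA1A transcripts add to its signal was not tested.

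HSPA6, an inducible HSP70 gene that is nearly silent in unstressed human cells, was the member with the largest group difference. It stood at 4.62 and 4.05 on the SSRP1 siRNA arrays and at 3.42 and 3.63 on the control arrays. All of these values lay below the median level over all genes, 4.64. HSPA6 was therefore left out when the fit was limited to genes at or above that level. Both SSRP1 siRNA arrays lay above both control arrays, and SSRP1 siRNA replicate 1 was again the highest. The difference was 0.81 ± 0.20 (SE), or 1.75-fold, with a 95% interval of 0.31 to 1.31, and it did not pass after adjustment (limma adjusted p = 0.238). With each array left out in turn the difference stayed between 0.53 and 1.10. HSPA7, a transcribed pseudogene close in sequence to HSPA6 and therefore not a member, had 2.88 and 3.22 with SSRP1 siRNA, against 3.01 and 2.69 with control siRNA. The order of its SSRP1 siRNA arrays was the opposite of that in HSPA6.

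The sequences before the starts of these genes are shown for HSPA1A and HSPA1B, whose replicates differed most, for HSPA6, the member with the largest group difference, and for BAG1, the member with the smallest p. Each line gives the 250 bases before the annotated gene start, 5′ to 3′ on the gene's strand, from RefSeq (GRCh38.p14). Capitals mark paired heat shock units, that is the letters GAANNTTC or TTCNNGAA. Both spell the same on the opposite strand, so a search of 1 strand covers both, and matches may overlap each other. HSPA1A is chr6:31815293-31815542 (+ strand), HSPA1B chr6:31827488-31827737 (+ strand), HSPA6 chr1:161524290-161524539 (+ strand) and BAG1 chr9:33264709-33264958 (- strand).
HSPA1A: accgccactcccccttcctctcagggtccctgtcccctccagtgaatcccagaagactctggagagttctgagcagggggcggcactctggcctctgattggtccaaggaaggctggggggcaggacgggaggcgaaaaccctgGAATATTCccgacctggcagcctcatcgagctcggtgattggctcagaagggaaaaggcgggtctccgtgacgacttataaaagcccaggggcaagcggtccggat
HSPA1B: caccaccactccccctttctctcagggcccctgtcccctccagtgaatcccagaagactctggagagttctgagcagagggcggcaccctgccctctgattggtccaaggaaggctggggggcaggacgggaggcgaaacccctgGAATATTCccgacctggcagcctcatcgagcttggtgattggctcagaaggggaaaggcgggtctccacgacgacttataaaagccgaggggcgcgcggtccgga
HSPA6: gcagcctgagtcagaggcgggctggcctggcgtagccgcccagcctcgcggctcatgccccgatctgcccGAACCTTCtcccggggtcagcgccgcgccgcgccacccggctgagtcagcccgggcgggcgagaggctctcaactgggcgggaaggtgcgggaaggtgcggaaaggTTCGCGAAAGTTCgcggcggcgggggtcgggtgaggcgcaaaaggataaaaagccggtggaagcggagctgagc
BAG1: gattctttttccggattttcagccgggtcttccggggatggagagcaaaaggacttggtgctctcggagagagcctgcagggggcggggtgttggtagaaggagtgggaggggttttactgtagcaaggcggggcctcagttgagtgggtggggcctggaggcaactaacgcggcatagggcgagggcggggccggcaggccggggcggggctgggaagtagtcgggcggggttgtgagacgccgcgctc

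HSPA1A and HSPA1B each had 1 match, GAATATTC, whose first base lay 106 and 105 bases before the start. Their windows were identical at 235 of 251 aligned positions (93.6%). HSPA6 had 3 matches, at 180, 74 and 69 bases before the start, of which the nearer 2 overlap and form a run of 3 units (TTCNNGAANNTTC). In the BAG1 window these letters were not found. The window of HSPA1L, on the opposite strand, shares 241 of its 250 bases with that of HSPA1A, and the GAATATTC of HSPA1A stands 161 bases before the start of HSPA1L.

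Of the 25 members 21 had a RefSeq window, 27 windows in all. A paired unit was found in 10 of the 27 windows (37.0%), 1 each for 10 genes, against 11.6% of all 35116 windows. The windows of HSPA1A and HSPA1L hold the same match, and that of HSPA1B is a near copy. Without HSPA1B and HSPA1L the count was 8 of 25 windows (32.0%). Besides the HSPA1 genes and HSPA6 these were HSPB1, HSPB8, HSPD1, HSPA4L, HSPB3 and BAG2. A run of 3 units (GAANNTTCNNGAA or TTCNNGAANNTTC) stood in 2 windows, those of HSPA6 and HSPD1, against 0.441% of all windows. HSPD1, which carries such a run, differed by 0.01 between groups, and HSPA6 by 0.81. A match of letters is a description of the window and shows no binding.

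**Figure D3:**
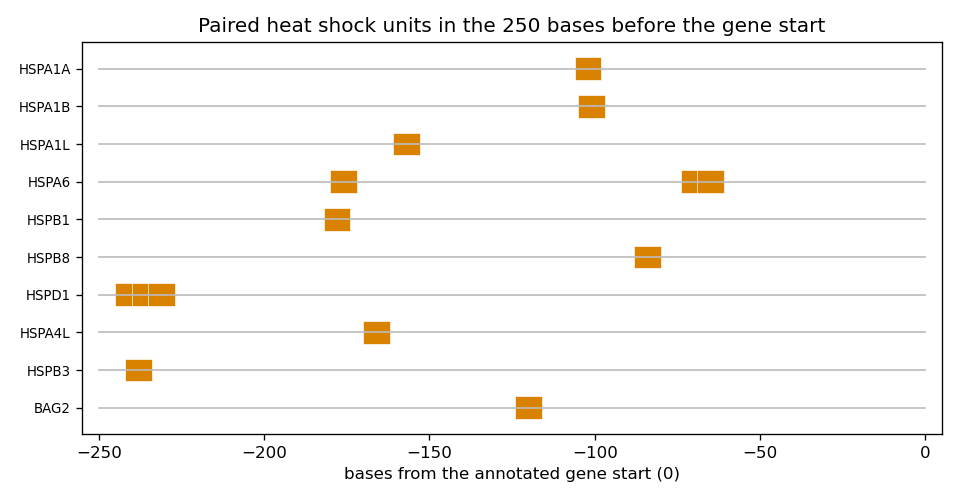
Positions of paired heat shock units (orange boxes, 8 bases each) in the 250 bases before the annotated start of the 10 members that have one, in bases from the start on the horizontal axis. For a gene with several windows the window with a match is drawn. HSPA6 and HSPD1 have 3 overlapping or separate matches and the other genes 1.

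None of the remaining HSP70 and HSP110 members passed the test. HSPA5, HSPA8 and HSPA13 stood on no probe set in the annotation used and are not among them. HSPA14, a ribosome-associated HSP70 family member, had 7.20 and 7.05 with SSRP1 siRNA, against 6.70 and 6.94 with control siRNA. The groups did not overlap, and the difference of 0.31 ± 0.13 (SE) had an adjusted p of 0.404, and was 0.19 without control replicate 1. HSPA4, an HSP110-type exchange factor, also lay above its controls, with 9.28 and 9.38 against 9.17 and 9.25 in control cells. HSPH1, the inducible HSP110, had 9.70 and 9.50 with SSRP1 siRNA, against 9.43 and 9.61 with control siRNA. The order of its 4 arrays was that of HSPA1A, on a much smaller scale, and the groups overlapped. HSPA4L, a further HSP110-type gene, had a change of -0.05 ± 0.13 (SE).

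HSPA2, an HSP70 gene best known from male germ cells, was lower without overlap, at 5.60 and 5.65 with SSRP1 siRNA, against 5.68 and 5.75 with control siRNA. HSPA12A, a distant HSP70 relative, was also lower without overlap, with a change of -0.12 ± 0.10 (SE). A second probe set of HSPA12A gave -0.11, but its groups overlapped. It had 3.21 and 3.55 with SSRP1 siRNA, against 3.51 and 3.48 with control siRNA. Neither HSPA2 nor HSPA12A passed the limma test (adjusted p of 0.785 and 0.693). HSPA12B, a member related to HSPA12A and found mainly in endothelium, had a change of 0.01.

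The 2 mitochondrial chaperones did not pass the test either. HSPA9, the mitochondrial HSP70 that pulls proteins through the inner membrane, had 11.24 and 11.17 with SSRP1 siRNA, against 11.25 and 11.30 with control siRNA. HSPD1, the HSP60 chaperonin of the matrix, stood at 8.02 and 8.03 with SSRP1 siRNA, against 7.96 and 8.07 with control siRNA. The difference for HSPD1 was 0.01 ± 0.10 (SE), with a 95% interval of -0.24 to 0.26, or 84.7 to 120% of the control level.

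HSPB1, the small heat shock protein that holds unfolded protein for HSP70 and binds actin, had 10.60 and 10.33 with SSRP1 siRNA, against 10.85 and 10.57 with control siRNA. SSRP1 siRNA replicate 1 lay above control replicate 2, so the groups overlapped. The difference was -0.25 ± 0.15 (SE), with a 95% interval of -0.62 to 0.12 and an adjusted p of 0.559. In both groups replicate 1 was the higher, by 0.26 with SSRP1 siRNA and 0.28 with control siRNA. Without single arrays the difference ran from -0.39 (without control replicate 2) to -0.11 (without control replicate 1), with -0.38 when SSRP1 siRNA replicate 1 was left out and -0.12 when replicate 2 of that group was.

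The other small heat shock protein genes did not pass the test. HSPB8, which works with BAG3 in the autophagy of damaged protein, had 3.01 and 3.44 with SSRP1 siRNA, against 3.46 and 3.15 with control siRNA. Its groups overlapped, and the order of its replicates was the reverse of that in HSPA1A in both groups. HSPB3, a small heat shock protein of muscle, lay at 1.84 and 1.88 with SSRP1 siRNA, against 2.00 and 1.95 with control siRNA. The 2 groups of HSPB3 did not overlap, and the difference was -0.11 ± 0.10 (SE, adjusted p = 0.693). All values of HSPB8 and HSPB3 lay below the median level over all genes, 4.64.

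BAG1, which binds HSP70 and links it to the proteasome and to BCL2, had the smallest p of the members. It stood at 6.22 and 6.47 with SSRP1 siRNA, and at 5.77 and 5.66 with control siRNA. Both SSRP1 siRNA arrays lay clearly above both control arrays, and the gap between the groups was wider than that within either. The difference was 0.63 ± 0.13 (SE), or 1.54-fold, with a 95% interval of 0.31 to 0.94. It did not pass after adjustment over all genes (limma adjusted p = 0.183). With the fit limited to the brighter genes, those at or above the median level, BAG1 passed (limma adjusted p = 0.0496). In that fit 179 of 7406 genes passed, against 14 of 14812 in the main fit. Without any 1 array the difference stayed between 0.50 and 0.75, with adjusted p between 0.360 and 0.599. Of its SSRP1 siRNA arrays replicate 2 was the higher, which is not the order of HSPA1A.

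The other BAG genes had smaller differences, none past the test. BAG5, which has several BAG domains, had 6.09 and 6.22 with SSRP1 siRNA, against 6.02 and 5.89 with control siRNA, a difference of 0.20 ± 0.11 (SE, adjusted p = 0.528) without overlap. BAG4, known as a silencer of death receptor signalling, differed by 0.10 ± 0.10 (SE), also without overlap. BAG2, an inhibitor of the ubiquitin ligase CHIP, was lower, at 6.63 and 6.75 against 6.92 and 6.77 in control cells, a difference of -0.16 ± 0.11 (SE), or -0.082 without control replicate 1 and -0.098 without SSRP1 siRNA replicate 1.

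BAG3, the stress-inducible member of the family and a target of HSF1, had 7.89 and 7.53 with SSRP1 siRNA, against 7.63 and 7.65 with control siRNA. SSRP1 siRNA replicate 1 was the highest array and replicate 2 the lowest, so the groups overlapped. Its difference was 0.08 ± 0.14 (SE), and -0.10 without SSRP1 siRNA replicate 1. HSPBAP1, which binds HSPB1, stood at 6.06 and 5.97 with SSRP1 siRNA, against 6.24 and 6.28 with control siRNA. It was lower without overlap, with a difference of -0.24 ± 0.10 (SE), a 95% interval of -0.49 to 0.004 and an adjusted p of 0.404.

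HSF1, the main regulator of the heat shock response, which is controlled chiefly at the protein level, had 6.65 and 6.68 with SSRP1 siRNA, against 6.58 and 6.61 with control siRNA. The groups did not overlap, yet the difference was 0.07 ± 0.10 (SE, adjusted p = 0.823). HSF4, the factor of the lens, had 5.33 and 5.26 with SSRP1 siRNA, against 5.59 and 5.41 with control siRNA, a difference of -0.20 ± 0.11 (SE). A second probe set of HSF4 gave -0.55, also without overlap, with 4.38 and 3.77 with SSRP1 siRNA, against 4.55 and 4.70 with control siRNA. With the 2 probe sets averaged the HSF4 difference was -0.38 (adjusted p = 0.371). For the brighter probe set alone the difference was -0.11 without control replicate 1. HSF5, a factor of male germ cells, overlapped between groups, with 3.22 and 3.69 against 3.44 and 3.36 in control cells. These values also lay below the median level over all genes, 4.64.

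**Figure D4:**
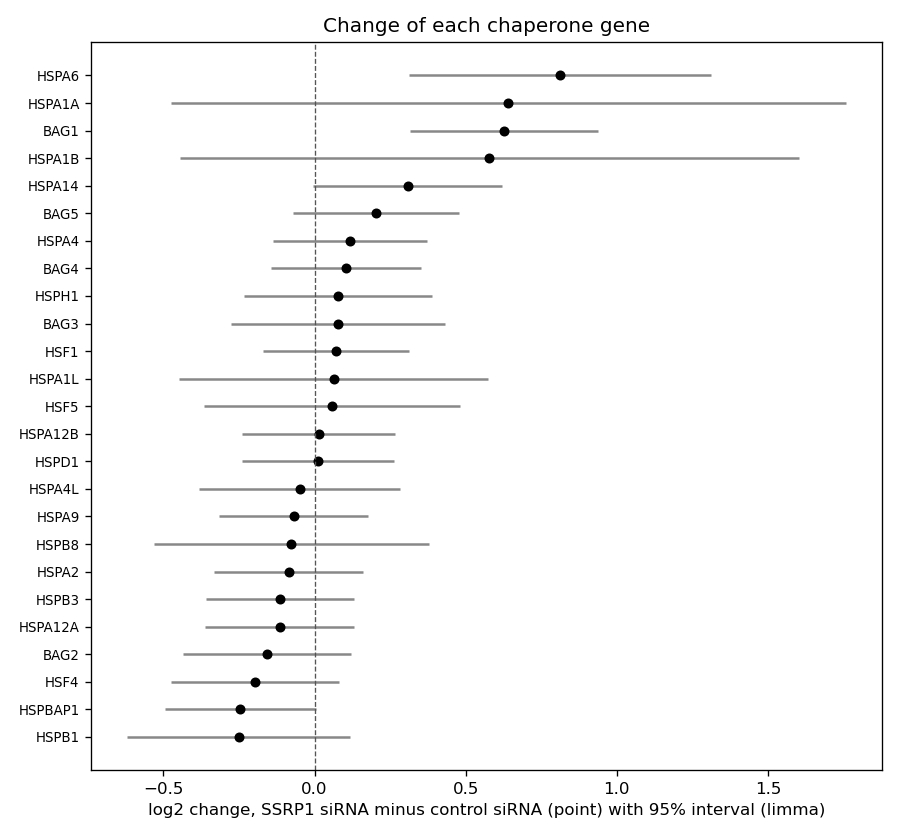
Log2 change of each of the 25 genes, SSRP1 siRNA minus control siRNA (horizontal axis, points), with the 95% interval from limma (bars), sorted by the change. The intervals of HSPA6 and BAG1 lie above 0, those of the other 23 include it, and HSPA1A and HSPA1B have the widest.

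The members taken as heat-inducible were also described as a list, of which 10 of 16 genes were measured. It includes HSPA1L, which is expressed mainly in testis and whose place on the list is uncertain. The group difference was above 0 in 7 of the 10 (70.0%), against 48.3% of all genes, with a median of 0.07. The 7 include HSPA1A and HSPA1B, which do not count as separate evidence, and HSPA1L. None passed the test, and HSPA6 was the 1 gene (10.0%) at an unadjusted p under 0.05, against 12.6% of all genes. Without SSRP1 siRNA replicate 1 the number above 0 was 3. The groups did not overlap for 1 of the 10, HSPA6, against 13 of the 15 members outside the list and 44.3% of all genes. The replicates of the listed genes lay further apart, with a median gap of 0.35 between the SSRP1 siRNA arrays and 0.24 between the control arrays, against 0.08 and 0.07 in the 15 other members.

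In 6 of the 10 listed genes SSRP1 siRNA replicate 1 was the highest of the 4 arrays: HSPA1A, HSPA1B, HSPA6, HSPH1, BAG3 and HSPA4L. Over all genes that array was the highest in 23.0%. SSRP1 siRNA replicate 1 above replicate 2 together with control replicate 2 above replicate 1 was found in 6 of the 10 (HSPA1A, HSPA1B, HSPA1L, HSPA6, HSPH1 and BAG3), against 4 of the 15 other members and 21.7% of all genes. The exact order of HSPA1A over the 4 arrays was shared by HSPA1B and HSPH1, while 2.62% of all genes had it. This pattern was chosen after the values of HSPA1A were seen, and the list holds HSPA1A itself with its near copies, so these counts are a description only. Without HSPA1A, HSPA1B and HSPA1L the pattern was found in 3 of 7 listed genes, and the median gap was 0.31 between the SSRP1 siRNA arrays and 0.18 between the control arrays.

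**Figure D5:**
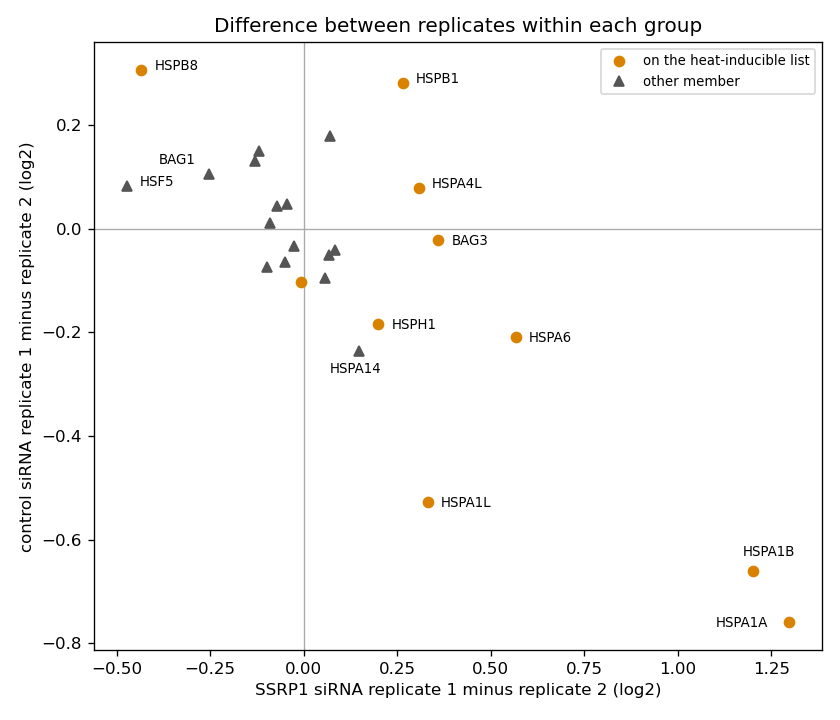
Difference between replicate 1 and replicate 2 of the SSRP1 siRNA group (horizontal axis, log2) against that of the control siRNA group (vertical axis, log2), 1 point per gene. Orange circles are genes on the heat-inducible list and grey triangles the other members. HSPA1A and HSPA1B stand apart at the lower right, at 1.30 and 1.20 between the SSRP1 siRNA arrays.

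Other genes of protein folding, from lists that hold no member, were measured beside them. Of 12 other heat-inducible genes 7 were measured, 5 above 0 with a median of 0.07 and none at an unadjusted p under 0.05. Over all genes 48.3% were above 0 and 12.6% had such a p. IER5, an immediate early gene that HSF1 induces, had the smallest p, with 6.10 and 6.01 with SSRP1 siRNA, against 5.85 and 5.84 with control siRNA (adjusted p = 0.475). HMOX1, the haem oxygenase induced by oxidative and heavy metal stress, had 5.97 and 5.92 with SSRP1 siRNA, against 5.61 and 6.11 with control siRNA. Its control replicates thus differed in the same direction as those of HSPA1A, by 0.50, while its SSRP1 siRNA replicates differed by 0.05. In 5 of these 7 genes SSRP1 siRNA replicate 1 lay above replicate 2 and control replicate 2 above replicate 1. Over all genes the share was 21.7%. Between the SSRP1 siRNA arrays the gaps were mostly small (a median of 0.05 over the 7), and only 0.0001 for UBB and 0.002 for CHORDC1. This pattern was chosen after the values of HSPA1A were seen, so the count is a description only.

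Of 23 other cytosolic chaperone and HSP90 co-chaperone genes 12 were measured, 7 above 0 and 5 below, with a median of 0.05. PFDN2, a subunit of the prefoldin complex that passes actin and tubulin to the cytosolic chaperonin, had the smallest p. It lay at 9.48 and 9.42 with SSRP1 siRNA, against 9.76 and 9.86 with control siRNA, a difference of -0.36 ± 0.10 (SE, adjusted p = 0.283). Of 20 other endoplasmic reticulum folding and unfolded protein response genes 12 were measured, 9 above 0, with a median of 0.08. CALR, the calcium-binding lectin chaperone calreticulin, had the smallest p there, with 10.999 and 11.022 with SSRP1 siRNA, against 10.65 and 10.81 with control siRNA (adjusted p = 0.382). Of 12 other mitochondrial chaperone and protease genes 7 were measured, 5 above 0, with a median of 0.17, and AFG3L2, a subunit of an inner membrane protease, had the smallest p at 0.18 ± 0.10 (SE, adjusted p = 0.532). Over all genes 48.3% were above 0, with a median of -0.007. None of the genes on these lists passed the test.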

How the data were processed

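RNA of 4 BE(2)C samples, 2 per group, was measured with the Human Gene 2.0 ST array of Affymetrix. The deposited table holds log2 values per probe set and array, made by the authors with RMA, per the submitters' processing notes, which name no software version. The values run from 0.502 to 12.8, which is why the scale was taken as log2. No detection calls were used, and array number limits the precision.

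Of 46255 probe sets 15835 had 1 symbol in the platform annotation, 0 had several and 30420 had none here. The probe set with the highest mean stood for a gene. Biotypes came from RefSeq (GRCh38.p14). Fits used limma 3.58.1 in R 4.3.3 (lmFit, eBayes) over all 14812 genes, two-sided, with Benjamini-Hochberg adjustment over all of them and 0.05 as threshold, without block or filter; it was tested on simulated data. An exact permutation test of 2 against 2 cannot go below p = 0.333 and was not used.

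The members and lists were chosen with earlier results of these data known. Named by rule were SSRP1, HSPB1, members at an unadjusted p under 0.05, the 6 largest non-overlapping differences each way, the largest replicate gaps (6 with SSRP1 siRNA, 4 in controls), the brightest of each family, all BAG, HSF and heat-inducible members, and the smallest p of each further list, which reached 24 members. A gene is called measured where a probe set carried its symbol in the annotation used. Lists of DNAJ, HSP90 and endoplasmic reticulum members had no such gene. Alternatives were the replicate block, variance trend, robust variances, quantile normalization, median centring, averaged probe sets, a level filter, all probe sets, a threshold of 0.1 and each array left out.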

Additional observations from a re-analysis of the deposited data

How the results depend on the processing

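No member passed the test under 11 of the 12 refits and at an adjusted p under 0.1; among genes at or above the median level 1 passed, BAG1. The SSRP1 change of -1.95 lost its call with the replicate block (adjusted p = 0.0569), robust variances (0.0512) and all probe sets (0.144), and without single arrays it was -2.17 to -1.72 (0.241 to 0.599). Over all named genes 14 passed, against 6 with the replicate block, 9 with robust variances, 23 with median centring, 28 with quantile normalization, 179 among genes at or above the median level, 215 with a variance trend, and 0 with all probe sets (1411 named genes at an unadjusted p under 0.05) or without any 1 array (1200 to 1672). Members at an unadjusted p under 0.05 in limma numbered 4 with a variance trend, a setting in which 14.3% of all genes had such a p. The members' median of 0.06 was 0.036 with HSPA1A and HSPA1B as 1 gene and 0.012 without HSPA1A, HSPA1B and HSPA1L, both alternatives chosen after seeing the data, and -0.022 to 0.063 without single arrays, lowest without SSRP1 siRNA replicate 1 and also below 0 without control replicate 1 (-0.0085). Heat-inducible members above 0 numbered 3 to 8 without single arrays. The median gap between SSRP1 siRNA replicates was 0.20 with averaged probe sets, against 0.13. HSPD1 turned to -0.0043 after quantile normalization. Without single arrays the sign also turned in these ranges: BAG3 -0.10 to 0.26, HSF5 -0.18 to 0.30, HSPA1A -0.0071 to 1.29, HSPA1B -0.022 to 1.18, HSPA1L -0.20 to 0.33, HSPA4L -0.20 to 0.11, HSPB8 -0.29 to 0.14, HSPD1 -0.041 to 0.063 and HSPH1 -0.022 to 0.18. The causes were not tested. Of 80 comparisons of summary values 64 kept their direction and side of the threshold or moved little. The replicate block changed no call of a member; deviations of same-numbered replicates correlated at 0.114 over genes, and with 2 numbers this does not show that they pair the samples.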

Other observations

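The HSPA1 pattern was looked for in all named genes, a search chosen after its values were seen. A gap of at least 0.5 with SSRP1 siRNA replicate 1 above 2 and control replicate 2 above 1 was found in 19 genes, of which HSPA1A and HSPA1B were the only members. The 3 other combinations of directions held 21, 31 and 13 genes at the same gap. Apart from HSPA1A and HSPA1B, the 19 genes lay at 6.38 or lower on all arrays. HSPA1A and HSPA1B lay at 8.997 or higher. The 17 other genes included the microRNA genes MIR1205, MIR4266, MIR495 and MIR300, ZNF302, a zinc finger gene at 4.85 and 4.34 with SSRP1 siRNA, against 4.23 and 4.93 with control siRNA, and GBP4, an interferon-induced GTPase gene at 2.50 and 1.92 with SSRP1 siRNA, against 1.72 and 2.49 with control siRNA.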
